A study of Mus musculus with 24 samples.

Results

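The 8 genes Pmp22, Mbp, Mag, Prx, Egr2, Sox10, Ncmap and Cnp encode proteins of Schwann cells and of myelin, and were taken by gene symbol from bulk RNA-sequencing count tables of mouse inner ear and of inner ear organoids. All 8 were found among the 18440 genes of the inner ear table and among the 25190 genes of the organoid table, and all 8 passed the filter on low counts in both (15525 and 15888 genes tested). The inner ear libraries were made from the soft tissue inside the bone of untreated male C57BL6/J mice aged 3, 11 and 20 months, with 4 mice per age and 1 library per mouse. The organoid libraries, 3 per group, came from clusters of cells grown from the cochlear epithelium of mice at postnatal day 1 to 2. The clusters were controls, treated with TNF-α (tumour necrosis factor, an inflammatory cytokine), given a lentivirus that knocks down RBM25 (an RNA-binding protein of the splicing machinery), or given both. The titles of the knockdown samples call them knockouts, the protocol calls them knockdowns, and they are called knockdowns here. The labels do not state the control virus, how much TNF-α was given or for how long, or the strain and sex of the newborn mice. They also do not say whether organoid replicates were separate cultures, so p-values in the organoids may reflect technical spread alone.

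Schwann cells wrap the axons of peripheral nerves, among them the axons of the auditory and vestibular neurons, in layers of membrane that compact into myelin. Oligodendrocytes do the same in the central nervous system, and the nerve of the inner ear passes from one to the other near the brainstem. Pmp22, Prx, Ncmap and Egr2 mark mainly peripheral myelin, whereas Mbp, Mag, Cnp and Sox10 are used by both glial cells. The Mbp locus also gives longer transcripts that make no myelin protein, and these tables sum all transcripts of a gene.

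Library totals were 30599012 to 38451292 counts in the inner ear and 33802411 to 37048422 in the organoids. Levels are given in CPM, read counts scaled to the normalised library size. Rbm25 itself fell in the knockdown organoids, from 145 ± 2.93 to 94.6 ± 2.14 CPM (SD, n = 3) by edgeR (log2 fold change -0.61, adjusted p = 1.009e-07). Replicate 2 of 20 months stood apart from the others: of the 12 inner ear libraries it was the lowest in 7 of the 8 genes, Sox10 being the exception. Results that rest on it are given with and without it.

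Promoters of 6 of the 8 genes were found in RefSeq sequences of GRCm38.p6, as 16 windows from 250 bases before to 50 bases after an annotated start. The promoters of the 4 genes that were lower at 20 months are shown, since these 4 were called in the same direction, with 1 window per gene on the strand of the gene and any SOX core in capitals. The searched letters, on both strands, were the SOX cores ACAAAG and ACAATG and the EGR core GTGGGCG. Sox10 and Egr2, both members, belong to the families that bind such cores. Of 32851 promoter windows, 18.7% held ACAAAG, 12.6% held ACAATG, 28.6% held either and 7.97% held GTGGGCG.
Pmp22, chr11:63128732-63129031 (+): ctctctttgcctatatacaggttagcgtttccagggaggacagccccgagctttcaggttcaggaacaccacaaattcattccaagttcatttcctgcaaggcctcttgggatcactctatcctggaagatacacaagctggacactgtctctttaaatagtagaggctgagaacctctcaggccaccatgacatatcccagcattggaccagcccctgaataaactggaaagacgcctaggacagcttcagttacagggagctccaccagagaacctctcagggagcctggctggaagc
Prx, chr7:27499074-27499373 (+): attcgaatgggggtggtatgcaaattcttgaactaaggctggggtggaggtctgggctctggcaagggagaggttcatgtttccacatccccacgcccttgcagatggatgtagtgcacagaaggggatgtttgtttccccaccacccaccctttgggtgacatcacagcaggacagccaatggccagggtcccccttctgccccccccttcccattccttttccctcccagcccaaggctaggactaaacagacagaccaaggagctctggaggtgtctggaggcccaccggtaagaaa
Ncmap, chr4:135398178-135398477 (-): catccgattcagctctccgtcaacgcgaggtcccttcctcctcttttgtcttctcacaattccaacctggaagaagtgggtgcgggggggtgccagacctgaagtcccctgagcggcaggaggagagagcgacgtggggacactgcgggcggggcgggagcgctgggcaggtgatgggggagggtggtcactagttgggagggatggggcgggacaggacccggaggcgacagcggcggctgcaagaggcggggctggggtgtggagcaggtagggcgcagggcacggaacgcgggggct
Cnp, chr11:100574689-100574988 (+): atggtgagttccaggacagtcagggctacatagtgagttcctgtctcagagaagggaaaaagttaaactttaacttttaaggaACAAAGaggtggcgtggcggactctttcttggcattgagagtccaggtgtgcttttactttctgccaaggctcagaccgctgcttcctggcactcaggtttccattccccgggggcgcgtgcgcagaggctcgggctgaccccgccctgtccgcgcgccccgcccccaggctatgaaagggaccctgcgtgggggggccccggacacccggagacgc
The Cnp window held ACAAAG, and the 3 others held none of the searched letters. Beyond these, ACAAAG was found in 2 overlapping windows of Mag, which share the same site, and GTGGGCG in 1 window of Egr2. A match describes letters only and says nothing of binding.

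The genes lie in the same build at chr11:63128982-63159547 (Pmp22), chr7:27499305-27520041 (Prx), chr4:135369576-135398240 (Ncmap), chr11:100574909-100591875 (Cnp), chr7:30899175-30914922 (Mag), chr10:67534469-67542188 (Egr2) and chr15:79154913-79164490 (Sox10). Exons of Cnp overlap those of Dnajc7 on the other strand, and exons of Prx overlap the predicted gene Gm15541 on the other strand. The libraries keep no strand information, so reads in these shared exons cannot be assigned with certainty.

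Among the structural genes of peripheral myelin, Pmp22, Ncmap and Prx were lower at 20 than at 3 months, with no overlap between the libraries of the ages. Cnp was lower too, whereas Mbp, Mag, Egr2 and Sox10 did not pass the test between these ages. Of the 8 genes, 4 were called lower, against 10.7% of all genes tested, and 0 higher, against 12.0%, by edgeR's quasi-likelihood test with Benjamini-Hochberg adjustment. The libraries of the ages did not overlap for the same 4 genes, against 10.6% of all genes lower and 11.4% higher. The median log2 fold change of the 8 was -0.21, and that of all genes was 0.01. In bulk tissue, fewer cells of a type and less RNA per cell cannot be told apart.

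Per transcript length, at 3 months, Mbp (565 ± 114 FPKM) and Pmp22 (481 ± 48.7 FPKM) had the highest levels, and their libraries overlapped. They were followed by Cnp at 273 ± 8.58, Prx at 166 ± 12.8 and Sox10 at 82.5 ± 2.65 FPKM (SD, n = 4), with no overlap between neighbours in this order. Ncmap, at 52.6 ± 6.85, and Mag, at 39.1 ± 9.53 FPKM, overlapped, and Egr2 was lowest at 12.4 ± 0.922 FPKM.

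**Figure D1:**
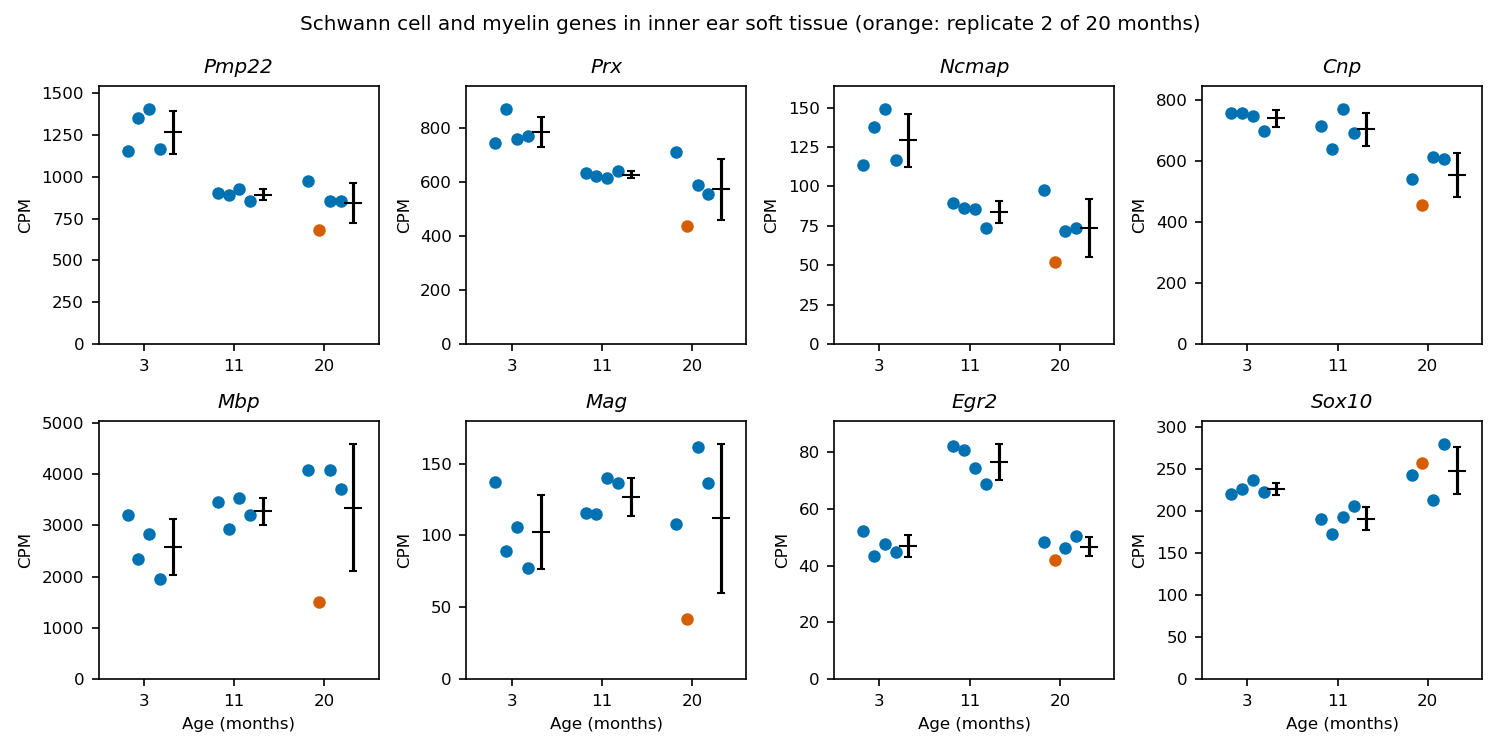
CPM of the 8 genes in each of the 12 inner ear libraries, by age in months. Points are single libraries (n = 4 per age), orange marks replicate 2 of 20 months, and the dash with bars gives the mean ± SD. Pmp22 lies at 1151 to 1401.5 CPM at 3 months and at 683 to 977 CPM at 20 months, and Egr2 is high only at 11 months.

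Pmp22, which encodes an integral protein of compact peripheral myelin, stood at 1151, 1349, 1401.5 and 1163 CPM at 3 months. It stood at 901, 888, 929 and 855 CPM at 11 months, and at 977, 683, 853 and 854 CPM at 20 months. Every library of 11 and of 20 months lay below every library of 3 months, and the libraries of 11 and 20 months overlapped. The log2 fold change from 3 to 20 months was -0.59 (SE 0.10, edgeR adjusted p = 0.00205), and all 17 alternatives kept the call (-0.50, edgeR adjusted p = 0.00245, without replicate 2 of 20 months). From 3 to 11 months it was -0.50 (SE 0.10, edgeR adjusted p = 0.0331), and this call was lost in 12 of 17 alternatives, among them leaving out any single library of these ages other than replicate 1 of 3 months. Without the other libraries of 3 or 11 months the log2 fold change was -0.43 to -0.53 (edgeR adjusted p = 0.0656 to 0.101).

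Ncmap, which encodes a small membrane protein of non-compact peripheral myelin, stood at 114, 138, 149 and 117 CPM at 3 months. Its levels were 89.7, 86.2, 85.8 and 73.9 CPM at 11 months and 97.5, 52.2, 71.5 and 73.6 CPM at 20 months. The libraries of 20 months lay below those of 3 months (edgeR log2 fold change -0.81, SE 0.16, adjusted p = 0.00412), and replicate 2 was the lowest. Without that library the log2 fold change was -0.68 (edgeR adjusted p = 0.0032). From 3 to 11 months it was -0.62 (edgeR adjusted p = 0.0659), with no overlap between the ages.

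Prx, which encodes periaxin, a scaffold that ties the Schwann cell membrane to dystroglycan, stood at 746, 870, 759 and 771 CPM at 3 months. At 11 months its libraries held 634, 622, 617 and 643 CPM, and at 20 months 713, 439, 590 and 557 CPM. The ages 3 and 20 months did not overlap, replicate 1 being the highest at 20 months and replicate 2 the lowest. The log2 fold change from 3 to 20 months was -0.45 (SE 0.11, edgeR adjusted p = 0.0137), and -0.34 without replicate 2 of 20 months (edgeR adjusted p = 0.0181). The call was lost with a muscle and bone marker score as a covariate (edgeR log2 fold change -0.52, SE 0.21, adjusted p = 0.139). This score was the mean log2 level of 8 such markers, an alternative chosen after the data were seen. It did not overlap between the ages, so a fit with it cannot separate the score from age.

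Cnp, which encodes an enzyme of the cytoplasmic loops of myelin in both glial cells, stood at 755, 758, 746 and 698 CPM at 3 months. It held 712, 639, 768 and 692 CPM at 11 months and 539, 457, 612 and 605 CPM at 20 months. The 4 libraries of 20 months lay below all 8 of the younger ages, and the younger ages overlapped. The log2 fold change was -0.42 from 3 to 20 months (SE 0.09, edgeR adjusted p = 0.00679) and -0.35 from 11 to 20 months (SE 0.09, edgeR adjusted p = 0.0253). Without replicate 2 of 20 months the first was -0.34 (edgeR adjusted p = 0.0106). Leaving out replicate 1 or 3 of the 11-month mice, or 1 or 2 of the 20-month mice, ended the second call (edgeR adjusted p up to 0.0739). The mucosal score (-0.22, edgeR adjusted p = 0.416) and the muscle and bone score (-0.21, edgeR adjusted p = 0.409), used as covariates, ended it too.

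**Figure D2:**
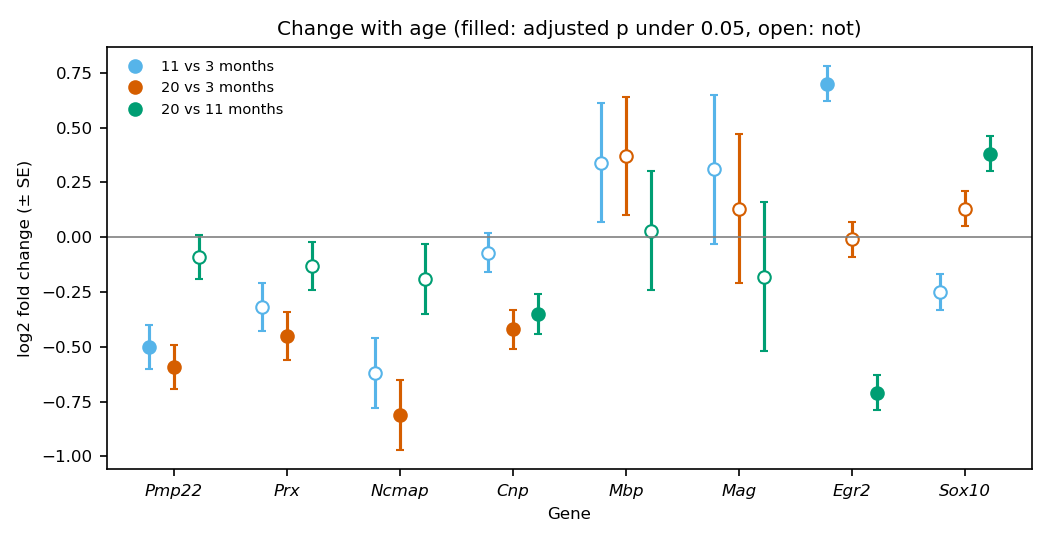
Fitted log2 fold changes of the 8 genes in the 3 age comparisons, with standard errors as bars. Filled points passed an edgeR adjusted p under 0.05 and open points did not. Pmp22, Prx, Ncmap and Cnp lie below 0 at 20 against 3 months, and Mbp at 0.37 is open.

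Mbp, which encodes the cytosolic protein that holds compact myelin layers together, had values of its own in the libraries of 20 months. It stood at 3199, 2351, 2840 and 1953 CPM at 3 months, at 3446, 2936, 3525 and 3195 CPM at 11 months, and at 4073, 1499, 4076 and 3716.5 CPM at 20 months. Replicate 2 of 20 months was the lowest of the 12 libraries and held 37.9% of the mean of the other 3 of its age, which were the highest of all. The log2 fold change from 3 to 20 months was 0.37 (SE 0.27, edgeR adjusted p = 0.342) with that library, and 0.61 (SE 0.14, edgeR adjusted p = 0.00939) without it. A single library therefore decided the call. From 3 to 11 months it was 0.34 (edgeR adjusted p = 0.528).

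Mag, which encodes a glycoprotein on the inner myelin membrane that faces the axon, stood at 137, 88.9, 106 and 77.3 CPM at 3 months. Its libraries held 116, 115, 140 and 136 CPM at 11 months and 108, 41.8, 161 and 137 CPM at 20 months. The ages overlapped, and replicate 2 of 20 months was again the lowest of the 12. The log2 fold change from 3 to 20 months was 0.13 (SE 0.34, edgeR adjusted p = 0.814), 0.40 without replicate 2 (edgeR adjusted p = 0.153), and -0.10 without replicate 3.

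Markers of oligodendrocytes moved with Mbp and Mag over the libraries. The summed level of the 10 markers was 300, 44.1, 168 and 49.1 CPM at 3 months, 359, 274, 405 and 345 CPM at 11 months, and 283, 30.8, 442 and 348 CPM at 20 months. Replicates 2 and 4 of 3 months and replicate 2 of 20 months were low in it. In replicate 2 of 20 months, Mog, a glycoprotein of the outer oligodendrocyte membrane, was at 6.42% of the mean of the other 3 libraries, Mobp at 7.58%, and Olig2, an oligodendrocyte lineage factor, at 1 count. Gfap, an astrocyte gene that non-myelinating Schwann cells also use, was at 12.2%. The mainly peripheral genes Pmp22, Prx, Ncmap and Egr2 were at 76.3%, 70.9%, 64.6% and 87.3%. The members used by both glial cells were divided, with Mbp and Mag at 37.9% and 30.9%, and Cnp and Sox10 at 78.0% and 105%. Of the 10 markers, 1 was called higher at 20 than at 3 months, against 12.0% of all genes. It was Opalin, which had 0 or 1 counts in each library of 3 months and 26, 0, 27 and 3 at 20 months.

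With the mean log2 level of these markers as a covariate, an alternative chosen after the data were seen, the log2 fold change of Mbp from 3 to 20 months was -0.02 (SE 0.12, edgeR adjusted p = 0.931). That of Mag was -0.38 (SE 0.12, edgeR adjusted p = 0.0433). Those of Pmp22, Ncmap, Prx and Cnp were -0.65, -0.91, -0.52 and -0.50, all called lower. With Mag, 5 of the 8 genes were called lower in this fit, and the share of all genes called in it was not taken. Relative to Pmp22, the counts of Mbp were 1.68 to 2.78 times as high at 3 months, 3.31 to 3.83 times at 11 months and 2.19 to 4.78 times at 20 months.

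**Figure D3:**
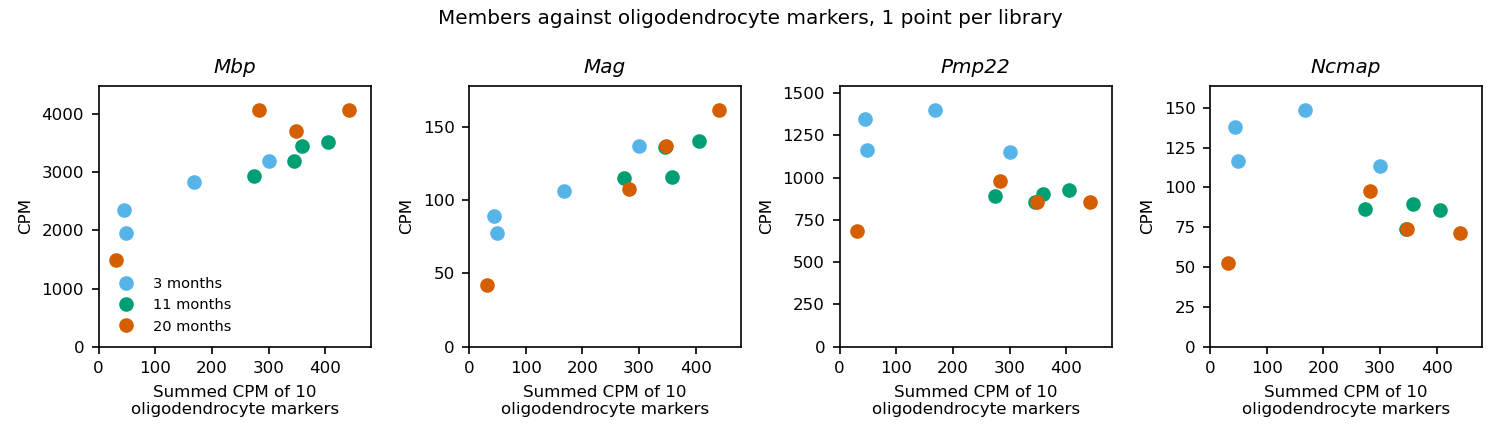
CPM of Mbp, Mag, Pmp22 and Ncmap (vertical axes) against the summed CPM of 10 oligodendrocyte markers (horizontal axes), 1 point per inner ear library, coloured by age. Mbp and Mag are low in the libraries with low sums (30.8 to 49.1 CPM), while Pmp22 and Ncmap at 3 months are not. In the library with the lowest sum, replicate 2 of 20 months, Pmp22 and Ncmap are also at their lowest (683 and 52.2 CPM).

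The regulators of the myelin programme followed another course. Egr2, the zinc finger factor that turns on myelin genes in Schwann cells, stood at 52.3, 43.3, 47.5 and 44.8 CPM at 3 months. It held 82.2, 80.8, 74.5 and 68.7 CPM at 11 months and 48.3, 42.2, 46.1 and 50.4 CPM at 20 months. The 4 libraries of 11 months lay above all others, and the libraries of 3 and 20 months overlapped. The log2 fold change was 0.70 from 3 to 11 months (SE 0.08, edgeR adjusted p = 0.00281), -0.71 from 11 to 20 months (SE 0.08, edgeR adjusted p = 0.00303) and -0.01 from 3 to 20 months (edgeR adjusted p = 0.957). The first call was lost with the muscle and bone score as a covariate (edgeR log2 fold change 0.42, adjusted p = 0.895), and the second with that score (-0.60, edgeR adjusted p = 0.0976) or the mucosal score (-0.65, edgeR adjusted p = 0.0724). The muscle and bone markers summed to 84.4 to 229 CPM at 3 months and 36.6 to 51.2 CPM at 11 months. Their score was 2.902 to 4.344 at 3 months, 1.181 to 1.335 at 11 months and 1.657 to 2.743 at 20 months. As these ranges do not overlap, a call lost with this score cannot be ascribed to the markers rather than to age. Egr2 is also an immediate early gene in many cells. Of 10 other immediate early genes 0 were called at 11 against 3 months (median log2 fold change -0.14). Of all genes, 0.979% were called higher and 0.580% lower there, so a count of 0 among 10 says little. At 20 against 3 months 6 of the 10 were called higher, against 12.0% of all genes.

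Sox10, the factor that specifies the glial lineage and acts upstream of Egr2, stood at 220, 226, 236 and 222 CPM at 3 months. Its libraries held 190.1, 173, 193 and 206 CPM at 11 months and 243, 257, 213 and 279 CPM at 20 months. The libraries of 11 months lay below those of both other ages. It rose from 11 to 20 months (edgeR log2 fold change 0.38, SE 0.08, adjusted p = 0.0118), and this call was lost with the mucosal score (0.28, edgeR adjusted p = 0.266) or the muscle and bone score (0.34, edgeR adjusted p = 0.217). From 3 to 11 months the log2 fold change was -0.25 (edgeR adjusted p = 0.123). Melanocytes also use Sox10, and their 8 markers summed to 354 to 1025 CPM at 11 months and 395 to 1564 CPM at 20 months. The part of these markers in the result was not tested.

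At 11 against 3 months, 1 member was called higher (Egr2, against 0.979% of all genes) and 1 lower (Pmp22, against 0.580%). The libraries of these ages did not overlap for 5 of the 8 genes, 4 lower and 1 higher at 11 months, against 5.75% and 7.22% of all genes. At 20 against 11 months, 1 was called higher (Sox10, against 7.87% of all genes) and 2 lower (Egr2 and Cnp, against 7.90%). For these 3 genes alone the libraries did not overlap, against 10.1% of all genes higher and 10.4% lower.

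Other genes of Schwann cells were read from 5 lists of 48 genes in all. From 3 to 20 months, 11 of the 48 were called lower and 3 higher, against 10.7% and 12.0% of all genes, with a median log2 fold change of -0.11 (0.01 for all genes). The same shares are the background of the counts by list. Without replicate 2 of 20 months the counts were 10 and 5, and leaving out replicate 1 or 3 of that age gave 1 or 5 higher. Of 10 other genes of myelin and its lipids, 5 were lower, 0 were higher, and the median was -0.36. Among the 5 were Gjc3, a gap junction protein of myelinating glia (log2 fold change -0.40), Pllp, the myelin protein plasmolipin (-0.48), Fa2h, which makes the hydroxylated lipids of myelin (-0.50) and Cldn19, a tight junction protein of non-compact myelin (-0.42).

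Of 10 genes of adhesion, nodes and basal lamina, 2 were lower and 2 higher (median -0.04). Drp2, a dystrophin-related protein that binds periaxin, fell from 422 ± 56.7 to 310.1 ± 66.3 CPM (edgeR log2 fold change -0.45, adjusted p = 0.0294). The node protein gene Nfasc, which neurons use too, had a log2 fold change of -0.54, and the laminin receptor subunit gene Itgb4 and the scaffold gene Mpp6 had 0.34 and 0.56. Among 12 signals and regulators, 1 was lower and 0 were higher, with a median of 0.16. It was Nrg1 (edgeR log2 fold change -0.68, adjusted p = 0.00495), the axonal signal to Schwann cells, which is made mainly by neurons. Its receptor gene Erbb3 gave 0.05, and the Egr2 partners Nab1 and Nab2 gave 0.18 and 0.19, none of them called. Of 10 genes of immature and non-myelinating cells, Ngfr, the low-affinity neurotrophin receptor, and Foxd3, a neural crest factor, were lower (-0.58 and -0.45). Of 6 genes of demyelinating neuropathies, the phosphatase gene Mtmr2 was lower (-0.27) and the endosomal gene Litaf higher (0.52).

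Neuron markers moved in the same comparison: 9 of 13 were called lower at 20 than at 3 months and 0 higher, against 10.7% and 12.0% of all genes. Their summed level was 12499 to 15933 CPM at 3 months and 8283 to 12120 CPM at 20 months. Of 7 macrophage markers, 7 were called higher, against the same 12.0% of all genes. Without replicate 2 of 20 months the 4 members were still called lower. The part of the neuron and macrophage markers in the results was not tested. The mucosal markers summed to 1008, 1042, 35.3 and 515 CPM in the libraries of 20 months. With the mucosal score as a covariate the 4 members were still called lower, and with the muscle and bone score 3 were.

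**Figure D4:**
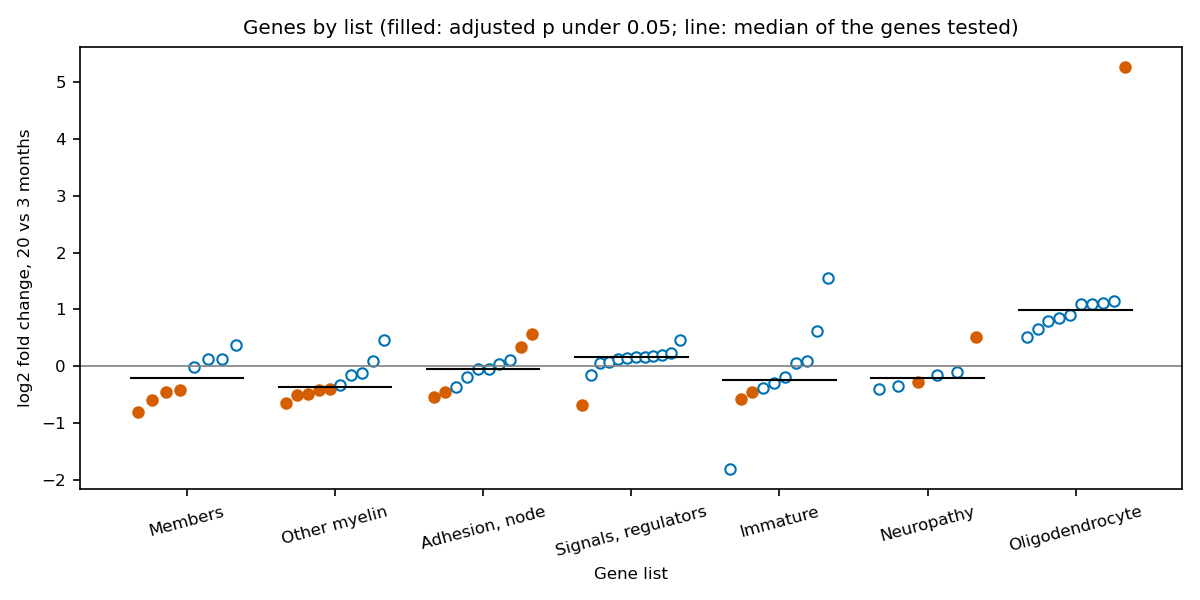
Fitted log2 fold changes at 20 against 3 months for the 8 members, the 5 other Schwann cell lists and the oligodendrocyte markers, 1 point per gene. Filled points passed an edgeR adjusted p under 0.05, open points did not, and lines are medians of the genes tested (-0.36 for other myelin genes, 1.00 for oligodendrocyte markers). The highest point is Opalin, whose size depends on the prior count because it had 0 or 1 counts at 3 months.

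The genes whose log2 CPM over the 12 libraries was most like the mean standardised profile of the 8 members were Smco3, Gm2137, Cacng4, Sorcs1, 1110065P20Rik, Fa2h, Pcolce2, Pllp, Ndrg1 and Gal3st1, with Pearson r of 0.852 to 0.903. The profile was -1.60 in replicate 2 of 20 months and -0.16 to 0.59 in the 11 others. Without that library, with the profile taken again over the 11 others, the same 10 genes had r of 0.392 (Ndrg1) to 0.797 (Pllp). Each member is itself part of the mean profile. Over the 12 libraries Cnp was the member closest to it (r = 0.846), followed by Prx and Ncmap (0.806), and Egr2 (0.192) and Sox10 (-0.229) were farthest. Without replicate 2 of 20 months the closest was Pmp22 (0.744), and Mbp and Mag went from 0.563 and 0.688 to -0.155 and -0.094.

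In the organoids, several genes of myelinating Schwann cells were near 0. Gjc3 and Cldn19 had 0 or 1 counts in a library, and Mag 0 to 17. Others were not near 0: Mbp held 47.5 to 103 CPM and Cnp 80.7 to 91.0 CPM. Of the 10 other myelin genes, 5 passed the filter on low counts. Sox10 was at 465 to 709 CPM, and it is also used by the epithelium of the developing cochlea. The levels of the 2 tables were normalised separately and are not compared. The lengths behind the FPKM values differed between the tables for Egr2 (3747 and 9083 bases) and Mbp (4519 and 8472 bases), among others.

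The knockdown of RBM25 was followed by higher Pmp22, Mbp, Prx and Mag, and lower Ncmap. Against the control, 4 of 8 genes were called higher (24.4% of all genes) and 1 lower (28.2%). The libraries did not overlap for 4 genes that were higher (28.2% of all genes) and for 1 that was lower, Sox10 (33.7%), which was not called (edgeR adjusted p = 0.0514). Pmp22 stood at 2.61, 1.85 and 2.85 CPM in the controls and at 7.60, 6.44 and 8.82 CPM with the knockdown. The groups did not overlap (edgeR log2 fold change 1.64, SE 0.18, adjusted p = 4.16e-07). Mbp stood at 54.7, 53.8 and 52.6 CPM in the controls and at 92.3, 101 and 103 CPM with the knockdown (edgeR log2 fold change 0.88, SE 0.05, adjusted p = 2.08e-10). Prx stood at 10.3, 9.50 and 8.48 CPM against 17.6, 19.8 and 19.8 CPM (edgeR log2 fold change 1.02, SE 0.10, adjusted p = 7.2e-08). All 3 were higher in each knockdown library than in any control.

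Mag and Ncmap rest on few counts. Mag had 0, 3 and 3 counts in the controls and 5, 15 and 17 with the knockdown (fitted log2 fold change 2.51, SE 0.76, edgeR adjusted p = 0.0094). Ncmap had 17, 39 and 35 counts in the controls and 18, 10 and 17 with the knockdown, with overlapping CPM (edgeR log2 fold change -1.08, SE 0.39, adjusted p = 0.0274). Leaving out control replicate 2 or 3, or knockdown replicate 2, ended the call for Ncmap. Cnp held 80.7 to 91.0 CPM over the 12 libraries and was called in 0 of the 5 comparisons by edgeR. By limma on log2(FPKM + 1) it was called in both knockdown comparisons, and its unadjusted p was under 0.05 in 1 comparison by edgeR, TNF-α against control (log2 fold change -0.10).

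**Figure D5:**
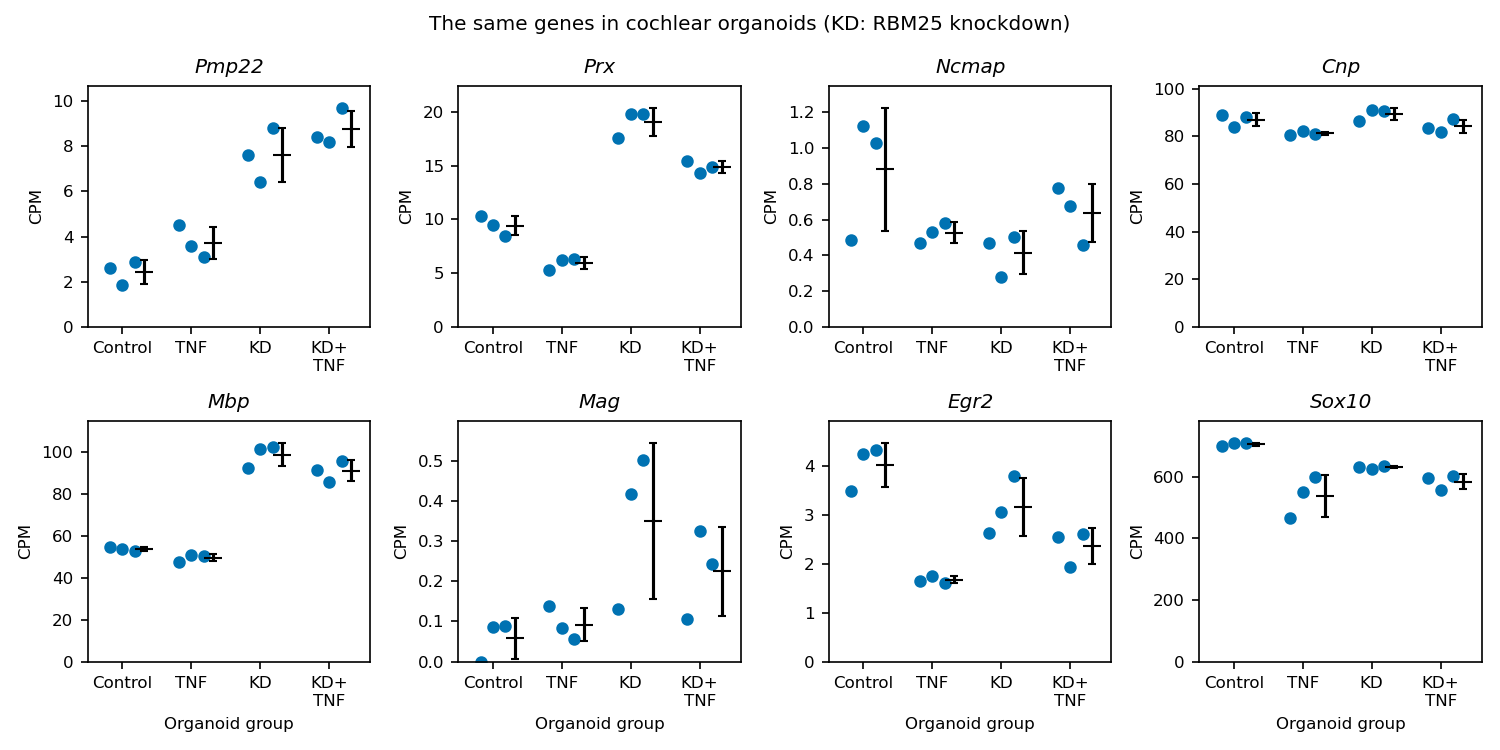
CPM of the 8 genes in the 12 organoid libraries by group (control, TNF-α, RBM25 knockdown, and both). Points are single libraries (n = 3 per group) and the dash with bars gives the mean ± SD. Pmp22, Mbp and Prx are higher in both knockdown groups, and Egr2 is lowest with TNF-α alone at 1.61 to 1.76 CPM.

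TNF-α alone was followed by lower Egr2, Sox10 and Prx and higher Pmp22. Of the 8 genes, 1 was called higher (23.3% of all genes) and 3 lower (24.2%). Egr2 stood at 3.50, 4.24 and 4.33 CPM in the controls and at 1.66, 1.76 and 1.61 CPM with TNF-α (edgeR log2 fold change -1.26, SE 0.20, adjusted p = 3.55e-05). Sox10 stood at 700.4, 708 and 709 CPM in the controls and at 465, 549 and 600.1 CPM with TNF-α (edgeR log2 fold change -0.39, SE 0.07, adjusted p = 0.000109). For both genes the groups did not overlap. In all, 1 gene was higher without overlap (27.8% of all genes) and 5 were lower (29.6%).

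Prx stood at 5.33, 6.26 and 6.31 CPM with TNF-α (edgeR log2 fold change -0.66, SE 0.10, adjusted p = 3.67e-05). Pmp22 stood at 4.50, 3.58 and 3.11 CPM (edgeR log2 fold change 0.61, SE 0.19, adjusted p = 0.0109), and its call was lost without replicate 2 of the controls or replicate 1 of TNF-α. The comparisons of TNF-α and of the knockdown with the control share the control libraries. Immediate early genes other than Egr2 moved too: with TNF-α, 7 of 10 were called lower and 2 higher, against 24.2% and 23.3% of all genes.

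With the knockdown present, TNF-α was followed by 1 lower gene, against 22.0% of all genes, and 0 higher genes, against 22.8%. The libraries did not overlap for 3 genes, all lower (26.4% of all genes; 26.8% were higher). Prx stood at 15.5, 14.3 and 14.9 CPM with both and at 17.6, 19.8 and 19.8 CPM with the knockdown alone (edgeR log2 fold change -0.36, SE 0.09, adjusted p = 0.0047). Egr2 held 2.63, 3.07 and 3.80 CPM with the knockdown alone and 2.54, 1.95 and 2.61 CPM with both (edgeR log2 fold change -0.42, adjusted p = 0.0889). Against TNF-α alone, adding the knockdown was followed by higher values of 4 genes, against 25.4% of all genes, and of 0 lower, against 26.9%. The same 4 did not overlap between the groups, against 28.1% of all genes higher and 29.6% lower. They were Pmp22 (log2 fold change 1.23), Mbp (0.88), Prx (1.32) and Egr2 (0.50, edgeR adjusted p = 0.0461). The call for Egr2 was kept in 3 of 12 alternatives, and was lost without any 1 of the TNF-α libraries or without replicate 1 or 3 of both treatments.

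Whether the TNF-α effect differed with the knockdown was tested as an interaction. None of the 8 genes passed by edgeR, which called 7.54% of all genes higher and 4.81% lower, while 4 of the 8 had an unadjusted p under 0.05, against 26.5% of all genes. They were Egr2 (0.84, SE 0.28, edgeR adjusted p = 0.0524), Sox10 (0.28, edgeR adjusted p = 0.0632), Ncmap (1.34, edgeR adjusted p = 0.123) and Prx (0.30, edgeR adjusted p = 0.179). By DESeq2's Wald test 1 was called, Egr2 (adjusted p = 0.0384).

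Of the 48 other Schwann cell genes, 46 were in the organoid table and 36 were tested. With the knockdown 16 were called higher and 11 lower, against 24.4% and 28.2% of all genes (median log2 fold change 0.19, and -0.03 for all genes). With TNF-α 11 were higher and 11 lower, against 23.3% and 24.2% of all genes (median 0.00, and -0.02 for all genes). Among myelin genes, Ugt8a, the enzyme that makes the galactolipids of myelin, was higher with the knockdown (2.07) and with TNF-α (1.23). Drp2, the partner of periaxin, had 2 to 9 counts in the controls and 15 to 18 with the knockdown (fitted log2 fold change 1.39, edgeR adjusted p = 0.0284). Among regulators, Nab1, a corepressor that binds Egr2, was lower with the knockdown (-0.75) and higher with TNF-α (0.40), and Nab2 was lower with each (-0.25 and -0.61). Markers of other cell types moved with the knockdown too, where 24.4% of all genes were called higher and 28.2% lower. Of 6 hair cell markers, 5 were called higher and 1 lower. Of 6 tested supporting cell and lateral wall markers, 0 were called higher and 5 lower. The neuron markers summed to 41.1 to 43.0 CPM in the controls and 76.1 to 110.2 CPM with the knockdown. The oligodendrocyte markers summed to 0.201 to 0.260 CPM in the controls and 1.30 to 2.13 CPM with the knockdown, and the part of these markers in the results was not tested.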

How the data were processed

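RNA was measured by bulk sequencing in 24 mouse libraries, prepared with a TruSeq RNA v2 kit, which keeps no strand, per the labels. Trimmomatic, HISAT2, HTSeq and DESeq2 were used with mm10, per the submitters' processing notes, which state no versions. The deposited counts are raw whole reads per gene. The FPKM values were computed by the authors from gene length and depth.

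Each count table was fitted whole with edgeR 4.0.16 in R 4.3.3 (TMM, filterByExpr, robust quasi-likelihood F-test, two-sided, 1 coefficient per group, Benjamini-Hochberg over all genes tested, threshold 0.05), after tests on simulated data. The biological coefficient of variation was 19.8% (inner ear) and 8.04% (organoids). No replicates were alike within sampling noise. The alternatives were DESeq2 size factors, the DESeq2 1.42.0 Wald test, no count filter, a replicate block, limma 3.58.1 on log2(FPKM + 1), only the groups compared, each library left out, and, chosen after the data were seen, 3 marker scores as covariates (mean log2(CPM + 1) of the list).

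The members and lists were chosen with earlier results of these data known. Named genes are the members, up to 3 genes per list with the smallest p, Drp2, Nab1 and Nab2 as partners of members, and the 10 genes nearest the members' profile; some genes the rule names are not reported here. Cldn19, Fa2h and Erbb3 among the lists, Opalin, and the markers shown for replicate 2 of 20 months were named after their values were seen. Coordinates and promoters are from RefSeq (GRCm38.p6), and overlaps from GENCODE vM21. Figures were drawn with matplotlib 3.10.9.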

Additional observations from a re-analysis of the deposited data

Results flagged for a closer look

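Mbp in the 20-month group had 1 library far from the others: replicate 2 stood at 1499 CPM (1498.8), and the 3 others at 3716.5 to 4076 CPM. Dixon's test over 24 groups of 4 libraries (8 genes at 3 ages) flagged this group alone. Chance alone flags about 1 in 20 groups, so a single flagged group among 24 is about what chance gives. The 24 groups share libraries, and the members were chosen with earlier results of these data known. That replicate 2 of 20 months stood low was among those results. The test therefore cannot decide whether this library differs by more than chance. The other 7 genes had no such library at 20 months, although replicate 2 was the lowest of its age in 6 of them.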

How the results depend on the processing

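Values below are log2 fold changes or counts of the 8 genes called by edgeR or the tool named; where a value changed, the cause was not tested unless the setting itself shows it (fewer libraries). For 20 against 3 months, the 4 lower calls were kept under every alternative except Prx with the muscle and bone score.

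The covariates turned these values. With the oligodendrocyte score, Mbp was -0.02 and Mag -0.38 (20 against 3 months), Mbp -0.22 and Mag -0.39 (11 against 3), and Mag 0.01 (20 against 11). The oligodendrocyte score was 1.87 to 3.906 at 3 months and 3.891 to 4.293 at 11 months. These ranges barely overlap, so at 11 against 3 months the fit can hardly separate this score from age. With the muscle and bone score, Mbp was -0.58 (SE 0.36) and Mag -1.09 (SE 0.46) at 20 against 3 months. At 11 against 3 months Mbp was -1.17 (SE 0.51) and Mag -1.58 (SE 0.65), and at 20 against 11 months Pmp22 was 0.03 and Mag 0.49. None of these values with the muscle and bone score was called, and the muscle and bone score did not overlap between the ages. With the mucosal score, Egr2 was 0.0013 (20 against 3), and Mag -0.24 (11 against 3) and 0.41 (20 against 11). By limma, Egr2 was 0.03 (20 against 3) and Mbp -0.04 (20 against 11).

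Counts of called genes moved as follows. The shares of all genes were taken for the main fit alone. A moved count, here and below, can therefore not be told from a shift over all genes. At 11 against 3 months the lower count was 3 by DESeq2's Wald test, 4 with only the groups compared, and 0 by limma, with the replicate block and with each of the 3 scores, and the higher count was 0 with the muscle and bone score. At 20 against 11 months the higher and the lower count were both 0 with the mucosal or the muscle and bone score. In the organoids the lower count was 2 for the knockdown with only the groups compared and 2 for TNF-α with the knockdown under DESeq2 size factors, and the higher count for the interaction was 1 by DESeq2's Wald test. The interaction of Mbp was -0.02 with DESeq2 size factors, -0.04 with no count filter, -0.02 by the Wald test and -0.03 by limma, and that of Cnp was -0.0017, -0.02, -0.0019 and -0.01 in the same order.

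With 1 library left out at a time, the higher count ranged from 0 to 1 (20 against 3 months, TNF-α, and the interaction), and the lower count from 0 to 1 (11 against 3 months, and the knockdown), 1 to 2 (20 against 11 months) and 1 to 3 (TNF-α with the knockdown). Mag ranged from -0.10 to 0.40 and Egr2 from -0.05 to 0.04 (20 against 3), Pmp22 from -0.16 to 0.0024, Mbp from -0.08 to 0.27 and Mag from -0.41 to 0.09 (20 against 11), and the interaction of Mbp from -0.07 to 0.03 and of Cnp from -0.04 to 0.04.

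Deviations of same-numbered libraries correlated at -0.35 to 0.37 over 12 pairs in the inner ear and -0.12 to 0.29 over 18 in the organoids. Pairs with different numbers were not computed, so these values do not settle whether replicate numbers pair the samples. With the replicate block, Pmp22 at 11 against 3 months (-0.50 in both fits, edgeR adjusted p = 0.0647) and Egr2 for both treatments against TNF-α (0.49 with the block and 0.50 without, edgeR adjusted p = 0.0537) were no longer called, and Mbp at 20 against 11 months was -0.04.

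Depth limits Mag and Ncmap in the organoids, with at most 17 and 39 counts per library, and counting error alone is covered by these counts.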
